A study of Mus musculus with 6 samples.

Results

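The 8 genes described here encode the nuclear receptors for retinoids and the proteins that carry retinoic acid in the cytoplasm: Rara, Rarb and Rarg (the retinoic acid receptors, RARs), Rxra, Rxrb and Rxrg (the retinoid X receptors, RXRs), and Crabp1 and Crabp2 (the cellular retinoic acid binding proteins). They were taken by gene symbol, 8 of the 32285 genes counted. Their transcripts were counted in single cells of the microdissected cardiogenic region of wild-type C57BL/6 mouse embryos at E10.5. All dams had been mated with normal glycemic males. The labels name 3 samples from vehicle-treated dams with normal blood glucose, and 3 from dams made hyperglycemic by streptozotocin, a toxin of the insulin-producing beta cells. The labels also list non-cardiac mesoderm, ectoderm and endoderm among the cells captured. One label field names a chromatin assay, but the titles, the library kit and the gene matrix are those of RNA.

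Retinoic acid is made from vitamin A in some embryonic tissues and broken down in others, and the uneven supply patterns the pharyngeal arches, the second heart field and the foregut. It binds a RAR paired with a RXR on DNA at direct repeats of a short core motif. Crabp2 is known to pass retinoic acid to the RARs, and Crabp1 is known to hold it in the cytoplasm and to favour its breakdown. Rarb is a classical target of the receptors as well as a receptor itself.

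The deposited matrix held 53362 cell barcodes from 6 libraries that are told apart by a barcode suffix. No file used here ties a suffix to a sample, so streptozotocin was not compared with vehicle, and every value below describes the pooled cells or 1 library at a time. Barcodes with fewer than 2500 genes, or with more than 10% of UMIs from mitochondrial genes, were left out. A UMI (unique molecular identifier) marks 1 captured transcript. This left 35962 cells, 4903 to 7136 per library, with 195763232 to 245913073 UMIs and a median of 30533 to 35634 UMIs per cell. Libraries 1 and 2 had exactly 10000 barcodes each before this filter. Library 1 stood apart in sex: Xist was at 383 counts per 1000000 UMIs (CPM) there against at most 0.342 CPM in each of the other 5, while Ddx3y was at 0.0908 CPM against 33.8 to 38.1 CPM. Of 35820 barcode sequences, 141 occurred in more than 1 library.

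Cells were assigned to classes by marker lists that hold none of the 8 genes. A marker was on with 2 or more UMIs, some gates also required or excluded single markers, and a cell that passed more than 1 gate was set aside. The 16 classes of at least 50 cells held 21236 cells, from 4532 crest mesenchyme-like cells to 75 myeloid-like cells. In each class 6 or more of its own markers were at least 2-fold above the other gated cells, and its 10 leading genes by fold held at most 1 marker of any other list. Cells were picked by these same markers, so both results follow largely from the gates and do not bear out the class names. Some gates were also permissive. Of smooth muscle-like cells 73.6% had only the minimum number of markers, as did 51.3% to 55.8% in the anterior and posterior heart field, branchiomeric muscle and paraxial classes. Epicardium-like and smooth muscle-like cells had medians of 5 and 4 of 8 cushion markers on. Anterior heart field-like cells had a median of 3 of 12 crest mesenchyme markers on, the same number as of their own. Cushion mesenchyme-like cells and migratory crest and glia-like cells also had a median of 3 of these 12 on. Branchiomeric muscle-like cells had a median of 3 of 7 anterior heart field markers on, and the anterior heart field gate excludes cells with Lhx2 or Myf5 on, both markers of the muscle list. Surface ectoderm-like cells had a median of 3 of 9 endoderm markers on. Class names below mean the cells of that gate.

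The sequence most tied to these genes is the retinoic acid response element of Rarb itself, since it links the receptor's own level to the pathway. Each window of 300 bases around the start of a gene in the RefSeq set for GRCm38.p6 (250 bases before to 50 after) was searched on both strands for direct repeats of that motif with a spacer of 5 bases (DR5), 2 bases (DR2) or 1 base (DR1). Windows were matched for 7 of the 8 genes, all but Crabp2. Among these 7, DR5 was found at Rarb alone, and DR1 and DR2 at none. DR5 was in 32 of 32851 windows (0.0974%), DR2 in 0.268% and DR1 in 0.222%. Among the other genes with a DR5 was Cyp26a1, which encodes an enzyme that degrades retinoic acid. Both sites are shown 5′ to 3′ with the repeat and its spacer in capitals.
Rarb: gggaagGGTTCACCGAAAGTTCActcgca
Cyp26a1: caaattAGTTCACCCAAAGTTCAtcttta
The Rarb site is at chr14:16575507-16575535 on the minus strand, which is the strand of the gene, with the capitals 53 to 37 bases before the RefSeq start. It lies within the first exon of 2 annotated Rarb transcripts and within an intron of 2 others. The Cyp26a1 site is at chr19:37697770-37697798, printed from the minus strand of a plus-strand gene, with the capitals 32 to 16 bases before the start. The capitals of the pair are identical at 15 of 17 bases. A match describes letters in a window and does not show that a receptor was bound there.

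Levels are given in CPM of the UMIs summed over a class, with 95% exact Poisson intervals, and shares of cells are given after every cell was thinned to 5000 UMIs. The intervals cover counting error only and not the spread between embryos. A difference was called at 2-fold or more with at least 10 CPM on the higher side. Since every count comes from the 3′ end, it was not divided by transcript length, and levels are compared between classes for 1 gene at a time. Shares and sums within a gene family are of UMIs, so they also carry any difference in capture between genes. They do not measure the make-up of the proteins. A member was called higher in a class than in all other gated cells in 12 of 98 tested pairs of a gene and a class. Over all genes 6.55% of such pairs were called. Rxrg was tested in only 2 classes, those where it reached 10 CPM, and its low level elsewhere fixed both calls in advance. These calls are included in the counts here and are no support for a pattern. Of 7 members that reached 10 CPM in some class, 6 were called higher in at least 1 class, against 46.5% of all genes. The highest class was 10-fold or more above the lowest for 6 of the 7, against 43% of genes, while it was 2-fold or more above the next class for 1 of the 7, against 16% of genes.

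**Figure D1:**
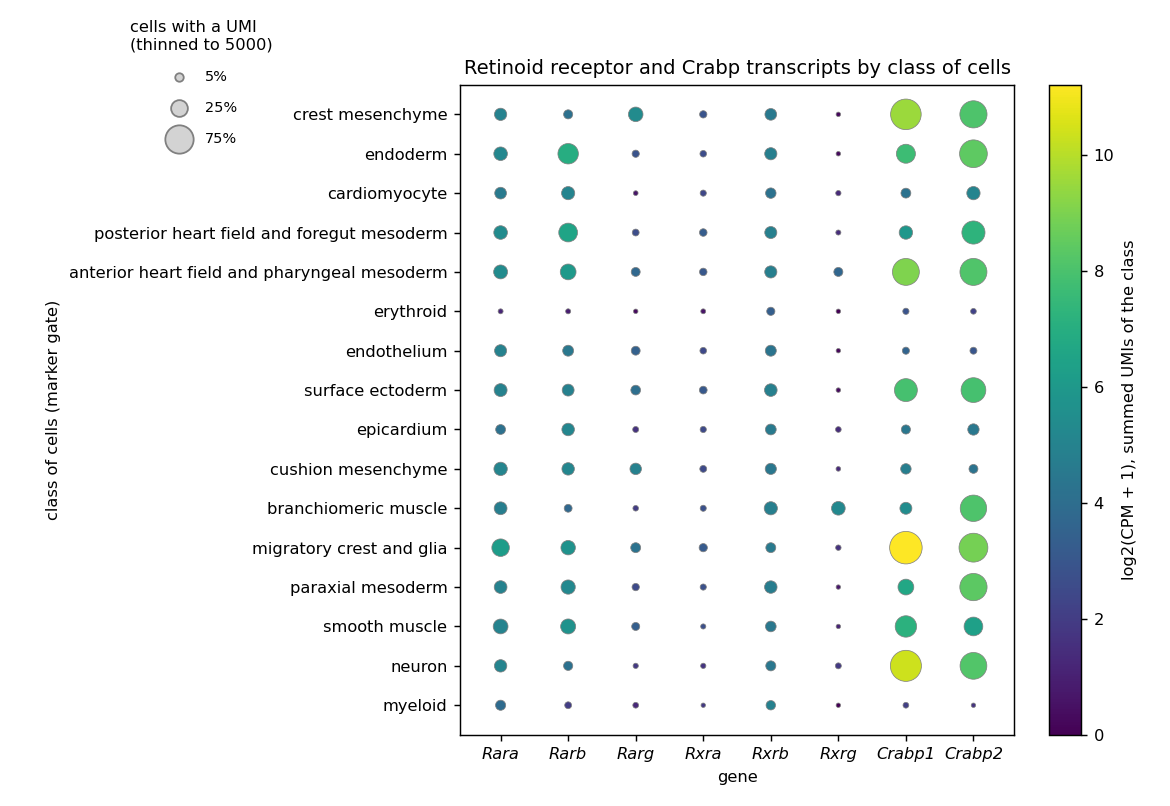
Colour gives log2(CPM + 1) of each of the 8 genes (x axis) in 16 classes of cells (y axis), and the area of a dot grows with the share of cells with a UMI after thinning to 5000 UMIs. The brightest dots are Crabp1 in migratory crest and glia (2355 CPM), neurons (1302 CPM) and crest mesenchyme (731 CPM), and Rxrg is visible mainly in branchiomeric muscle (37.0 CPM) and anterior heart field mesoderm (11.4 CPM).

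Rara (ENSMUSG00000037992, chr11:98927818-98974942 in GRCm38, plus strand), the most widely expressed RAR in many embryonic tissues, was also the most evenly spread RAR here. It was at 10 CPM or more in 15 of 16 classes. Migratory crest and glia, whose gate required Sox10 or Foxd3, stood highest at 70.7 CPM (66.8 to 74.7), 2.64-fold above the other gated cells. The 5 libraries with 20 or more such cells gave 77.3, 81.1, 64.0, 75.9 and 67.1 CPM. All 5 were above every library of the next class, posterior heart field and foregut mesoderm, which gave 32.1 to 45.0 CPM (pooled 39.6). Anterior heart field and pharyngeal mesoderm (39.6 CPM) and endoderm (35.3 CPM) followed, and their library ranges overlapped. Epicardium was lower at 16.7 CPM, and myeloid cells at 13.8 CPM (10.7 to 17.5) from 68 UMIs. The myeloid ratio of 0.499 to the other cells lay at the limit of a call, and it was 0.587 without library 5 and 0.530 without library 6. Erythroid cells, a class not known for the gene, had 1.28 CPM: 0.499% of them had a Rara UMI after thinning, against 27.5% of migratory crest and glia.

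Rarb (ENSMUSG00000017491, chr14:16430839-16819156, minus strand) was a gene of the endoderm and of the mesoderm next to it. In endoderm it reached 126 CPM (124 to 128), 4.21-fold above the other cells, with 109, 110, 120, 129, 147 and 131 CPM in libraries 1 to 6. Posterior heart field and foregut mesoderm, which includes the cells that add to the venous pole of the heart, had 91.5 CPM (89.0 to 94.0), 2.31-fold. Its libraries gave 48.1, 96.4, 104, 89.5, 94.6 and 91.4 CPM. Library 1 was the low one and the other 5 lay close together. Every library had more Rarb in endoderm than in this mesoderm, and the ranges did not overlap. Anterior heart field and pharyngeal mesoderm came after them at 64.5 CPM, with libraries between 60.2 and 70.9 CPM. The posterior heart field ratio was 1.94 when 1 more marker was required of each cell.

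At the other end, Rarb was called lower in 6 classes. Crest mesenchyme, the largest class, had 16.8 CPM (16.2 to 17.4), 0.329 of the other cells, with 13.4, 18.3, 19.3, 16.9, 19.2 and 15.1 CPM by library. None of these libraries came near the lowest of the endoderm. Branchiomeric muscle had 12.2 CPM, neurons 16.9 CPM and endothelium 21.7 CPM (ratio 0.486, and 0.516 with 1 more marker required). Rarb overlaps Top2b and Gm48162 on the other strand, and whether the counting used strand is not given in the sources used here. Top2b, which encodes a DNA topoisomerase, was at 153 CPM in endoderm and at 165 CPM in crest mesenchyme, and Gm48162 did not pass 0.572 CPM in any class. Whether their reads were counted for Rarb was not tested.

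Rarg (ENSMUSG00000001288, chr15:102234938-102257517, minus strand), a receptor known from mesenchyme that goes on to form cartilage, had its highest level in crest mesenchyme. Its level there was 40.2 CPM (39.3 to 41.1), 6.53-fold above the other cells, and the libraries gave 47.1, 40.4, 51.3, 30.9, 34.1 and 33.0 CPM. Libraries 1 to 3 were thus above libraries 4 to 6. Cushion mesenchyme, a class named for the forming valve tissue, came next at 28.7 CPM (26.4 to 31.2), with 30.3, 32.8, 33.2, 17.6, 25.5 and 26.7 CPM. Crest mesenchyme exceeded it in 6 of 6 libraries, although the ranges overlapped. The 2.10-fold level of cushion mesenchyme over the other cells was near the limit of a call and was 1.61 after thinning, 1.90 with 1 more marker required and 1.80 with classes taken from clusters.

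Rarg was called lower in 9 classes. Cardiomyocytes had 62 Rarg UMIs among 2478 cells, or 0.534 CPM (0.409 to 0.684), and no library passed 0.779 CPM. A Rarg UMI was left in 0.282% of thinned cardiomyocytes, 0.0712% of erythroid cells and 18.5% of crest mesenchyme. Endoderm had 6.19 CPM and epicardium 1.99 CPM. Endoderm was thus high in Rarb and low in Rarg and crest mesenchyme the reverse, while anterior heart field mesoderm (12.4 CPM of Rarg) and migratory crest and glia (17.9 CPM) had no call for either gene.

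With these differences, the mixture of RAR transcripts varied between classes. Some classes were alike, such as anterior heart field mesoderm and smooth muscle, with Rarb at 55.4% and 55.1% of the RAR UMIs. Rarb made up 75.3% of the RAR UMIs of endoderm (71.9% to 77.6% by library), 67.1% in posterior heart field mesoderm, 65.0% in epicardium and 57.8% in cardiomyocytes. In crest mesenchyme the largest share was that of Rarg, 46.8% (40.5% to 52.6% by library), and Rarb had 19.5%. Rarg also had 29.8% in cushion mesenchyme and 21.4% in surface ectoderm, against 0.963% in cardiomyocytes. Rara led in branchiomeric muscle (63.1%), neurons (62.6%) and migratory crest and glia (51.1%). It also had the largest share in myeloid cells (75.6% of 90 UMIs), erythroid cells (52.2%) and endothelium (48.1%), and narrowly in surface ectoderm (40% against 38.7% for Rarb). The ranges of the Rarb share in endoderm and in crest mesenchyme (15.0% to 22.8%) were far apart. The summed RAR level was 168 CPM in endoderm, 138 CPM in migratory crest and glia, 136 CPM in posterior heart field mesoderm and 85.9 CPM in crest mesenchyme. It fell to 2.45 CPM in erythroid cells. These shares and sums are of captured UMIs, and whether capture differed from gene to gene was not tested.

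**Figure D2:**
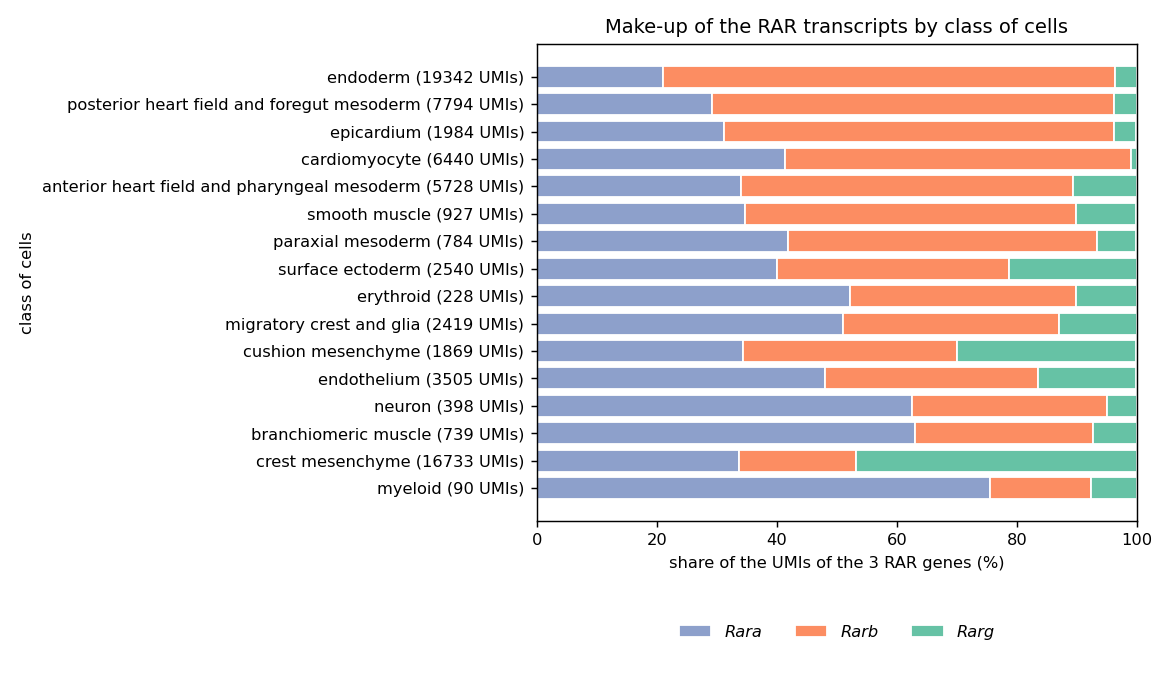
Each bar splits the UMIs of Rara, Rarb and Rarg in 1 class of cells into shares in percent (x axis), with classes ordered by the share of Rarb and the number of UMIs in brackets. Rarb fills 75.3% of the endoderm bar and Rarg 46.8% of the crest mesenchyme bar.

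Among the RXRs, the partners that every RAR needs, Rxrb was the broad one. Rxrb (ENSMUSG00000039656, chr17:34031812-34038399, plus strand) ranged from 17.6 CPM in cardiomyocytes to 28.7 CPM in myeloid cells outside the erythroid class, which had 9.27 CPM (0.402 of the other cells). In the other classes with a value in all 6 libraries, the median library was between 17.7 and 28.1 CPM. Neighbouring classes in this order did not separate by library. Rxra (ENSMUSG00000015846, chr2:27676440-27762957, plus strand) did not pass 8.62 CPM in any class and so was not tested between classes. Its highest level was in posterior heart field mesoderm, where the libraries gave 11.6, 7.92, 7.97, 8.67, 8.60 and 8.42 CPM, and its counts were 13 to 1283 UMIs per class.

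Rxrg (ENSMUSG00000015843, chr1:167598384-167639623, plus strand), known from skeletal muscle, retina and a few other tissues, was the most restricted member. In branchiomeric muscle, the head muscle progenitors of the pharyngeal arches, it reached 37.0 CPM (34.3 to 39.9) from 665 UMIs, 28.4-fold above the other cells. The libraries gave 42.2, 31.3, 38.2, 38.4, 32.8 and 35.7 CPM. Anterior heart field and pharyngeal mesoderm, from which these muscles arise, had 11.4 CPM (10.4 to 12.3), with 9.94, 11.9, 12.0, 10.3, 10.7 and 13.5 CPM. The lowest library of the muscle class was 2-fold or more above the highest of the mesoderm class, and the pooled levels differed 3.26-fold. No other class passed 2.76 CPM, and among 75 myeloid cells there was no Rxrg UMI, which allows up to 0.610 CPM (3 counts of the total). The anterior heart field value depended on the gate: its ratio to the other cells was 7.63, 12.7 with 1 more marker required, and 2.19 without a call when classes were taken from clusters. In branchiomeric muscle Rxrg made up 53.2% of the RXR UMIs and Rxrb 38.5%, and in anterior heart field mesoderm 24.9% and 59.0%. Rxrb held the majority of RXR UMIs in each of the other classes.

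Crabp1 (ENSMUSG00000032291, chr9:54764748-54773110, plus strand), a long-used label of neural crest and of hindbrain neurons, was highest in migratory crest and glia. That class had 2355 CPM (2332 to 2377), 8.83-fold above the other cells, and 99.5% of the cells had a UMI after thinning. Libraries 2 to 6 gave 2172, 1116, 2877, 2094 and 2567 CPM, with library 3 the lowest by a wide margin. Neurons followed at 1302 CPM (4.33-fold; libraries 608, 1056, 1779, 1259 and 1317 CPM, none given for library 3). Crest mesenchyme had 731 CPM (727 to 735), 3.98-fold, with 563, 662, 471, 1004, 933 and 880 CPM. Library ranges of these neighbours overlapped, but migratory crest exceeded neurons in 4 of 4 libraries with both, and neurons exceeded crest mesenchyme in 5 of 5.

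Below crest mesenchyme, Crabp1 stepped down through anterior heart field and pharyngeal mesoderm (517 CPM, libraries 482 to 552), surface ectoderm (235 CPM) and endoderm (202 CPM) to posterior heart field mesoderm (60.1 CPM). The classes gated as anterior and posterior heart field thus differed, at 482 to 552 CPM and 34.4 to 108 CPM by library. Of the anterior class, 1253 of 1611 cells had a UMI of Hox groups 3 to 5, with 593 CPM of Crabp1. Its 184 cells without a UMI of groups 1 to 5 had 130 CPM. Their libraries gave 76.7 to 207 CPM, which overlaps the posterior class. In the posterior class, 1589 cells with a UMI of groups 3 to 5 had 58.8 CPM, with libraries between 30.6 and 109 CPM. The anterior cells of that code had 522 to 640 CPM by library. The 48 posterior cells without a UMI of groups 1 to 5 had 58.5 CPM and were too few for a value by library. The gap was thus also present between cells of the same code. It describes cells of these gates, and whether it is a contrast of anterior with posterior heart field was not tested. Cardiomyocytes had 17.4 CPM and endothelium 10.8 CPM. Crabp1 was called lower in 10 classes. The erythroid level was 6.58 CPM, with a UMI in 1.85% of thinned cells, and whether it came from RNA outside the cells was not tested. It was uneven, with 19.3 CPM in library 5 against 2.20 to 6.39 CPM in the other 5, and the erythroid ratio of 0.0189 fell to 0.00737 when the 5% of cells with the most UMIs were left out.

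Crabp2 (ENSMUSG00000004885, chr3:87948666-87953376, plus strand) was also highest in migratory crest and glia. These cells had 471 CPM (461 to 481), 2.80-fold, and the 5 libraries gave 468, 562, 522, 427 and 469 CPM. Endoderm had 344 CPM (340 to 347), with 305, 364, 343, 371, 333 and 344 CPM. Its 2.33-fold level over the other cells was at the limit after thinning and was no longer called. Paraxial mesoderm (332 CPM), neurons (282 CPM), anterior heart field mesoderm (273 CPM), branchiomeric muscle (270 CPM), crest mesenchyme (265 CPM) and surface ectoderm (240 CPM) lay close behind, and library ranges overlapped at each step. Crabp2 was called lower in 7 classes, among them smooth muscle (79.3 CPM), cardiomyocytes (32.1 CPM), epicardium (21.3 CPM) and endothelium (6.98 CPM).

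The carriers were often found in the same cell, and classes differed in which was found alone. After thinning, a UMI of both was found in 77.7% of migratory crest and glia, 60.5% of crest mesenchyme, 60.5% of neurons and 46.3% of anterior heart field mesoderm. In endoderm 25.3% had both and 46.5% had Crabp2 only, and in branchiomeric muscle 7.79% had both and 57.1% Crabp2 only. Crest mesenchyme was tilted to the other side, with 27.3% Crabp1 only against 8.45% Crabp2 only. Erythroid cells had both in 0.641%. A RAR UMI was seen in 49.2% of endoderm cells, 44.9% of migratory crest and glia and 44.5% of posterior heart field mesoderm. A RAR and a RXR UMI together were seen in at most 7.45% of the cells of a class. No member at all was seen in 91.7% of erythroid cells, 63.0% of endothelium, 61.5% of epicardium and 53.8% of cardiomyocytes, but in 0 of 408 cells of migratory crest and glia, which allows a share of up to 0.735% (3 counts of the total). Thinning removes most UMIs of a cell, so these shares do not show that a cell lacks the genes. Before thinning, 64.8% of cardiomyocytes had a Rarb UMI and 61.9% of endothelium a Rara UMI, against 14.8% and 12.1% after it. In migratory crest and glia, Rara was seen in 90.9% and Rxrb in 60.3% of cells before thinning.

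Read by class, members called higher than in the other gated cells numbered 3 of 6 tested in migratory crest and glia (Rara, Crabp1 and Crabp2; 3.82% of all genes tested were called there), and none was lower (8.56%). In crest mesenchyme 2 of 6 were higher (Rarg and Crabp1; 2.43%) and Rarb was lower (1 of 6; 11.1%). In neurons Crabp1 was higher (1 of 6; 10.3%), and Rarb and Rarg were lower (2 of 6; 7.98%). The crest and neuronal classes thus shared high Crabp1.

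Endoderm had 2 of 6 higher (Rarb and Crabp2; 7.41%) and Rarg lower (1 of 6; 6.34%). Posterior heart field mesoderm had Rarb higher (1 of 6; 3.8%), and Rarg and Crabp1 lower (2 of 6; 5.01%). In anterior heart field mesoderm Rxrg was the 1 of 7 called higher (3.65%) and none was lower (4.71%). Rxrg reached 10 CPM only there and in branchiomeric muscle, so passing that minimum already fixed its call in both. Branchiomeric muscle had Rxrg higher as well (1 of 7; 4.38%), but Rarb, Rarg and Crabp1 lower (3 of 7; 6.57%). Paraxial mesoderm had none higher (2.87%) and Rarg and Crabp1 lower (2 of 6; 7.52%), and surface ectoderm had no member called higher (7.69%) or lower (5.6%).

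In the classes of the heart and vessels the calls were mostly to the low side. Cardiomyocytes had none higher (10.1%) and 3 of 6 lower (Rarg, Crabp1 and Crabp2; 13.1%), as did epicardium (8.72% and 7.09%) with the same 3 genes. Endothelium had none higher, beside 983 of 9378 genes, and Rarb, Crabp1 and Crabp2 lower (3 of 6; 9.75%). Cushion mesenchyme had Rarg higher (1 of 6; 8.95%) and both carriers lower (2 of 6; 6.53%), and smooth muscle had none higher (5.54%) and both carriers lower (2 of 6; 3.91%). Crabp1 and Crabp2 were thus both called lower in each of these 5 classes. Erythroid cells had none higher (2.86%) and 6 of 6 lower, beside 66.9% of genes, and myeloid cells none higher (11.2%) and 5 of 6 lower beside 22.9%. The erythroid count is close to what most genes did.

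Within crest mesenchyme, the cells were split by the Hox genes they carried, which mark position along the pharyngeal arches. Cells without a UMI of Hox groups 1 to 5 (316 cells) correspond by that code to the first arch, cells with group 2 only (2554) to the second, and cells with group 3 to 5 (1662) to more posterior arches. The members differed along this code in several ways. Crabp1 stepped up, Crabp2 stepped down, Rarg was lowest in the posterior cells, and Rarb was lowest in the middle.

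Crabp1 was at 319, 565 and 1018 CPM in Hox-negative, Hox2 and Hox3 cells. By library, Hox-negative cells had 415, 403, 196, 358, 341 and 373 CPM, Hox2 cells 481, 501, 385, 793, 671 and 684 CPM, and Hox3 cells 775, 824, 693, 1413, 1268 and 1199 CPM. The order of the 3 groups was the same in 6 of 6 libraries, and no library of the Hox3 cells overlapped the Hox-negative range. The ratio of Hox3 to Hox-negative cells was 3.19 (3.09 to 3.30). Of 6 members tested, Crabp1 was the 1 called higher in this comparison, against 1.71% of genes, and none was called lower, against 1.15%. Median UMIs per cell were 34903, 41638 and 44691 along the same code, so fewer transcripts were read in the Hox-negative cells. With the code read from cells thinned to 5000 UMIs, the Crabp1 ratio was 2.41 and remained a call. Thinning also moves cells that lose their Hox UMIs into the Hox-negative group, so this ratio does not settle the part of depth.

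Rarb was at 20.6 CPM in Hox-negative cells, 6.81 CPM in Hox2 cells and 30.1 CPM in Hox3 cells. Hox2 cells had 8.04, 8.13, 8.76, 5.96, 6.30 and 3.23 CPM by library, and Hox3 cells 26.1, 27.6, 35.6, 29.8, 30.4 and 32.4 CPM. These ranges were apart in all libraries, with a ratio of 4.43 (4.07 to 4.82), and Rarb was the 1 member of 6 called (1.39% of genes were called higher). Hox-negative cells had 12.1, 22.2, 22.3, 19.0, 30.6 and 14.3 CPM, above the Hox2 cells in 6 of 6 libraries, and the ratio of Hox2 to Hox-negative cells was 0.331 (0.284 to 0.387; 1.30% of genes were called lower). The size of that dip changed with how the code was read. With the Hox code taken from cells thinned to 5000 UMIs, the Hox2 to Hox-negative ratio was 0.572, below the limit of a call. The Hox3 to Hox2 ratio was then 6.68, and the Hox3 to Hox-negative ratio moved from 1.46 to 3.82. Cells that lose their Hox UMIs in thinning join the Hox-negative group, so these ratios are for mixed groups. They cannot decide whether the dip depends on depth.

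The other members differed less. Rarg had 41.9, 45.1 and 33.1 CPM and was lower in Hox3 than in Hox2 cells in 6 of 6 libraries (ratio 0.733, 0.698 to 0.769). Crabp2 had 323, 296 and 215 CPM, lower in Hox3 than in Hox-negative cells in 6 of 6 libraries (ratio 0.665, 0.641 to 0.690). Rara had 27.1, 23.9 and 36.3 CPM, higher in Hox3 cells than in either other group in 6 of 6 libraries. None of these reached 2-fold. In shares, Rarg went from 46.8% of RAR UMIs in Hox-negative cells to 59.5% in Hox2 and 33.3% in Hox3 cells, and Crabp1 from 49.7% of the Crabp UMIs to 65.6% and 82.6%. Rara had the largest RAR share in Hox3 cells, 36.5%. Of 58 other pathway genes, 27 were tested between Hox3 and Hox-negative cells. The 5 that were called are Hox genes used to make the split.

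**Figure D3:**
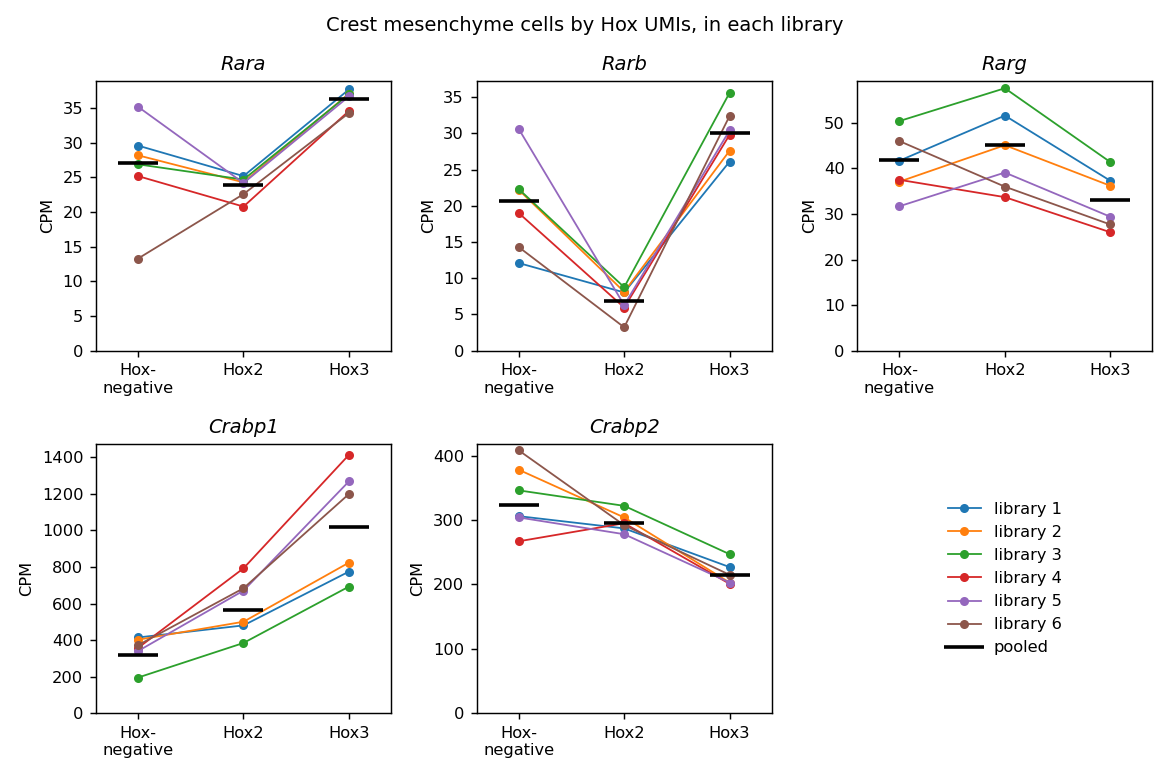
Each panel plots the level of 1 gene in CPM (y axis) in crest mesenchyme cells without Hox UMIs, with Hox2 or with Hox3 (x axis); lines join the cells of 1 library and black bars are the pooled values. Crabp1 is higher at each step in every library and reaches 693 to 1413 CPM, and Rarb dips to 3.23 to 8.76 CPM in Hox2 cells.

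The same code was then read in 5 other classes, a comparison chosen after the class levels had been seen. In anterior heart field and pharyngeal mesoderm, Rarb was at 76.8 CPM in 1253 Hox3 cells and 11.4 CPM in 184 Hox-negative cells, a ratio of 6.73 (5.13 to 9). The 5 libraries with enough cells gave 72.4 to 79.1 CPM against 3.65 to 21.1 CPM. Crabp1 was at 593 CPM against 130 CPM (ratio 4.57, higher in 5 of 5 libraries), and these were the 2 of 7 members called higher, against 2.01% of genes. Rxrg went the other way, 9.08 CPM against 26.7 CPM (ratio 0.340, lower in 5 of 5 libraries), as 1 of 7 members called lower against 3.10% of genes. The sizes depended on the gate: the Rarb ratio was 11.1 with 1 more marker required and 3.09 with classes taken from clusters, which gave 2.91 for Crabp1. The Rxrg direction turned with classes taken from clusters, to a ratio of 3.62.

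Elsewhere the code went with the members to different extents. In surface ectoderm Rarb was at 36.6 CPM in Hox3 and 18.2 CPM in Hox-negative cells (2.01-fold) and Crabp2 at 289 CPM and 127 CPM (2.27-fold), 2 of 6 members against 2.91% of genes. The Rarb call was lost in 6 of the other settings, at 1.68 to 1.99, and only 3 libraries had enough cells for a value in both groups. In cardiomyocytes Crabp1 was at 38.9 CPM against 10.3 CPM and Crabp2 at 58.8 CPM against 24.2 CPM, both higher in 6 of 6 libraries, 2 of 5 members against 4.21% of genes. In posterior heart field mesoderm Rarb was at 95.2 CPM against 28.5 CPM in only 48 Hox-negative cells, too few for a value by library (1 of 7 members, 3.04% of genes), and Rarg was lower in the Hox3 cells at 4.91 against 12.0 CPM (1 of 7, 4.42%). Endoderm differed: Rarb had 140 CPM in Hox3 and 121 CPM in Hox-negative cells, a ratio of 1.16 with the higher value in 4 of 6 libraries. Crabp1 was lower in the Hox3 endoderm, 163 CPM against 446 CPM, 1 of 5 members against 2.04% of genes. It was lower in only 4 of 6 libraries, since the Hox-negative cells of libraries 2 and 3 had 101 and 92.7 CPM against 309 to 686 CPM in the other 4.

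In the heart, the carrier Crabp2 separated the chambers. Cells of the atrial gate (549) had 73.1 CPM (69.7 to 76.7) and cells of the ventricular gate (1014) had 8.52 CPM (7.78 to 9.30). By library, atrial cells had 58.9, 63.8, 54.3, 79.6, 98.9 and 75.2 CPM and ventricular cells 10.4, 9.80, 4.40, 6.07, 10.0 and 8.59 CPM. The ranges were far apart, and the ratio was 8.58 (7.76 to 9.51), or 5.39 with classes taken from clusters. It was the 1 of 5 tested members called higher in atrial cells, against 4.13% of genes, and none was called lower, against 2.19%. Rarb, at 34.1 and 26.3 CPM, and Rara, at 23.0 and 21.2 CPM, differed by less than 2-fold. Rxrg (2.77 and 0.465 CPM) and Rxra (2.16 and 5.47 CPM) differed by more, Rxrg higher in atrial cells and Rxra lower in 6 of 6 libraries, but both were below 10 CPM and are values without a call. Crabp1 had 15.7 and 11.9 CPM and was higher in atrial cells in 3 of 6 libraries.

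Other pathway genes also differed between the chambers: of 24 tested, 6 were called higher in atrial cells (4.13% of all genes) and 1 lower (2.19%). Nr2f2 (285 against 8.81 CPM) and Nr2f1 (143 against 6.19 CPM), orphan nuclear receptors of atrial identity, were 32.3-fold and 23.1-fold higher. Also higher were Nr1h3, a sterol receptor that pairs with RXRs (12.0 against 1.15 CPM), the heart transcription factor Tbx5 (112 against 44.4 CPM) and Nr4a1 (12.3 against 4.92 CPM). Each of these 5 was higher in 6 of 6 libraries. Tgm2, a transglutaminase induced by retinoic acid in many cells, was the 1 that was lower, 13.9 against 30.2 CPM. Between endocardial (842) and other endothelial cells (250) no member of 5 tested was called, against 5.78% of genes called higher and 3.15% lower. Among the tested members the largest differences there were Rara, 33.4 against 19.0 CPM, and Rarg, 7.80 against 14.8 CPM, each in the same direction in 6 of 6 libraries. Other settings did pass the limit: Rara was 2.17-fold higher in endocardial cells after thinning, Rarg had ratios of 0.416 to 0.489 in 4 settings and Crabp1, 0.675 here, had 0.404 to 0.499 in 3.

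The endoderm was also divided, again after its levels had been seen, by Pax9 (pharyngeal pouch, 1720 cells), Nkx2-1 (thyroid and lung field, 542 cells) and Shh without either (649 cells). Rarb was at 84.3, 162 and 236 CPM in this order. Shh-only cells had 202, 242, 242, 231, 254 and 233 CPM by library and Pax9 cells 84.2, 76.7, 69.9, 84.8, 93.1 and 93.0 CPM. No library of one came near the other, and the ratio was 2.80 (2.69 to 2.91), with 1 of 5 members called higher against 2.50% of genes. Nkx2-1 cells had 72.5, 139, 153, 160, 163 and 204 CPM, with library 1 below its own Pax9 value and the other 5 between the other parts. Crabp1 had a different order, 239 CPM in Pax9 cells, 43.8 CPM in Nkx2-1 cells and 93.6 CPM in Shh-only cells. Pax9 cells exceeded both other parts in 6 of 6 libraries (1 of 5 members called lower in each, against 2.17% of genes for Shh-only and 2.79% for Nkx2-1 cells). The Shh-only to Nkx2-1 ratio of Crabp1, 2.13, was 1.55 without library 4. Crabp2 was also highest in Pax9 cells, 416 CPM against 252 and 242 CPM.

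**Figure D4:**
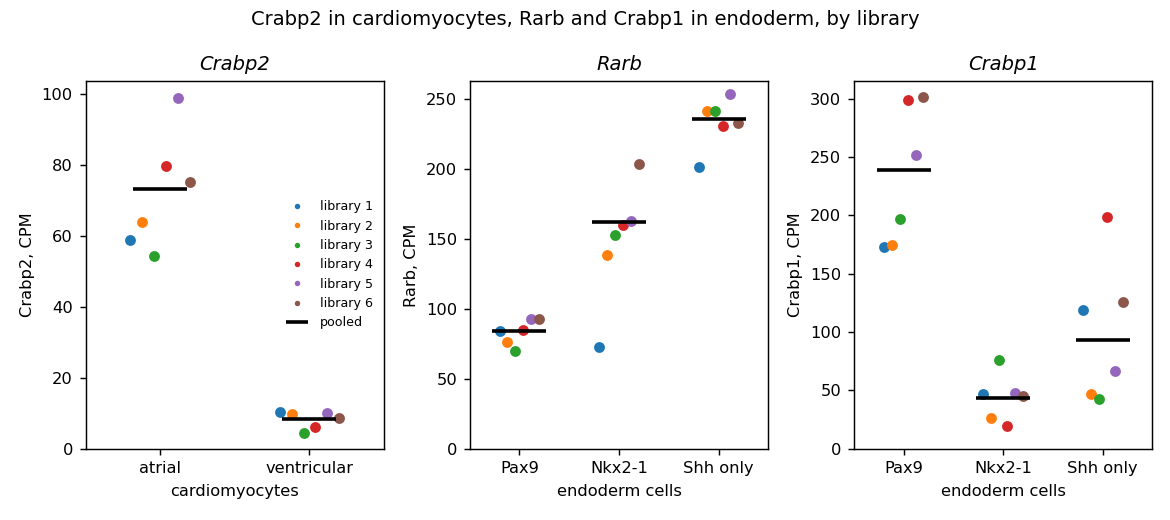
Points are the 6 libraries and black bars the pooled levels in CPM (y axis): Crabp2 in atrial and ventricular cardiomyocytes on the left, Rarb and Crabp1 in 3 parts of the endoderm in the middle and on the right. Atrial Crabp2 (54.3 to 98.9 CPM) lies above every ventricular value, and Rarb is highest in Shh-only cells (202 to 254 CPM).

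Across libraries, each member was also compared within the 11 classes that had 20 or more cells in every library. The median ratio of the highest library to the lowest was 1.65 over the pairs of a member and a class with a lowest value above 0. A pair was called, as above, at 2-fold or more with at least 10 CPM in the higher library. In crest mesenchyme the pair called was Crabp1 (1 of 6 members tested against 1.88% of genes), from 471 CPM in library 3 to 1004 CPM in library 4, with a median of 771 CPM. The 3 values above 800 CPM were those of libraries 4, 5 and 6. They were also the 3 highest within Hox2 and within Hox3 cells, but not within Hox-negative cells, where libraries 1 and 2 were highest. Library 3 had the lowest Crabp1 in 7 of the 11 classes, and library 1 the lowest Rarb in 8 of 11. Library 1 was the female library, and whether sex, treatment or handling went with these levels was not tested.

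The largest ratios among called pairs were in classes with low levels. In erythroid cells Crabp1 ranged from 2.20 to 19.3 CPM (1 of 2 members tested, 2.04% of genes), and in branchiomeric muscle from 22.4 to 97.1 CPM, where Rarb was also called (2 of 6, 11.6%). Epicardium had 3 of 5 members called against 5.46% of genes: Rarb had 19.2, 21.6, 56.4, 33.1, 42.4 and 47.3 CPM, Crabp2 9.80 to 41.0 CPM and Crabp1 11.9 to 30.5 CPM. Posterior heart field mesoderm had 2 of 6 (Rarb and Crabp1) against 8.05%. Cushion mesenchyme (2 of 6, 9.71%) and endothelium (2 of 6, 4%) had both carriers called, endoderm had Crabp1 (1 of 5, 2.54%) and cardiomyocytes Crabp2 (1 of 5, 1.48%). In anterior heart field mesoderm (0 of 7, 3.96%) and surface ectoderm (0 of 6, 4.87%) none was.

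**Figure D5:**
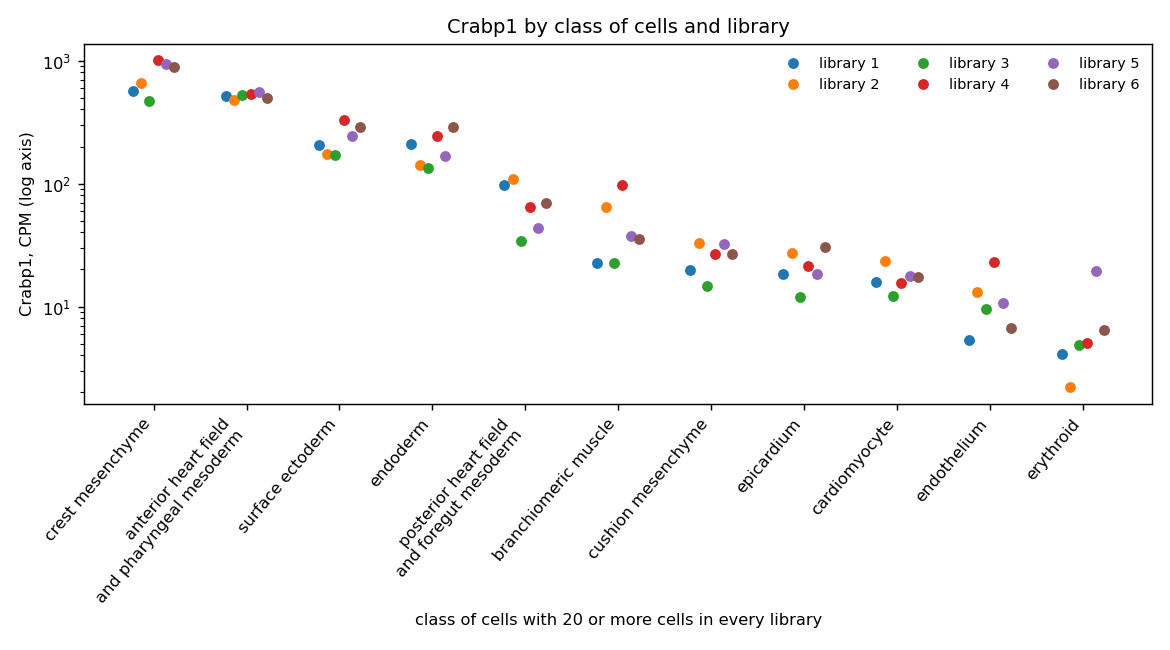
Crabp1 in CPM (log y axis) in 11 classes of cells (x axis), with 1 point for each library. Libraries 4, 5 and 6 lie above the others in crest mesenchyme (880 to 1004 against 471 to 662 CPM), the anterior heart field points nearly coincide (482 to 552 CPM), and library 5 stands alone in erythroid cells (19.3 CPM).

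The supply side of the pathway had its own distribution. Of 14 genes of retinoid uptake and synthesis, 9 reached 10 CPM in some class and 7 of these were called higher in at least 1, a count to be read, like those for the other roles, beside the 46.5% of all genes so called. Aldh1a2, the main retinoic acid synthase of the trunk mesoderm, was at 107 CPM in posterior heart field mesoderm and 80.6 CPM in epicardium, and at 1.97 CPM in endoderm and 1.04 CPM in crest mesenchyme. Rdh10, which makes retinal from retinol, was at 47.9 CPM in anterior heart field mesoderm and 39.4 CPM in endoderm, and Aldh1a1, another synthase, at 93.8 CPM in epicardium and 41.2 CPM in endoderm. The class with the most Rarb thus had very little Aldh1a2, and the class next to it in Rarb had the most. Crest mesenchyme had 0 of 6 tested genes of this role called higher (2.43% of all genes) and 3 lower (Rdh10, Aldh1a1 and Aldh1a2; 11.1%), and migratory crest and glia had the same 3 lower (8.56%).

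Of the 3 enzymes of breakdown, 2 reached 10 CPM. Cyp26b1 was at 17.6 CPM in endoderm and 12.9 CPM in surface ectoderm. Cyp26a1, whose DR5 is printed above, was at 13.5 CPM in anterior heart field mesoderm, where libraries 1 to 6 gave 2.17, 1.84, 0, 31.3, 14.2 and 15.8 CPM. That is a wider spread than for any member in this class, with libraries 4, 5 and 6 above the other 3. Co-regulators of the receptors were broad: 11 of 11 reached 10 CPM and 3 were called higher somewhere. Of 17 genes known to respond to retinoic acid, 15 reached 10 CPM and all 15 were called higher in some class. Posterior heart field mesoderm had 7 of 12 tested called higher (Hoxa3, Hoxb3, Hoxb4, Hoxa4, Meis1, Nr2f2 and Tbx5), beside 3.8% of all genes, and none lower (5.01%). Neurons had 6 of 12 higher (10.3%) and 1 lower (7.98%), anterior heart field mesoderm 6 of 13 (3.65%) and 1 (4.71%), and paraxial mesoderm 5 of 10 (2.87%) and 1 (7.52%). Endoderm had 4 of 12 higher (7.41%) and 2 lower (6.34%). Migratory crest and glia and surface ectoderm each had 4 of 11 higher (3.82% and 7.69% of all genes) and 1 lower (8.56% and 5.6%). Counts leaned to the lower side in other classes. Branchiomeric muscle had 0 of 10 higher (4.38%) and 6 lower (6.57%), cushion mesenchyme 0 of 10 (8.95%) and 7 (6.53%), cardiomyocytes 2 of 11 (10.1%) and 7 (13.1%), and epicardium 1 of 12 (8.72%) and 5 (7.09%). Endothelium had 1 of 11 higher (983 of 9378 genes) and 6 lower (9.75%), myeloid cells 0 of 10 (11.2%) and 9 (22.9%), and erythroid cells 1 of 11 (2.86%) and 10 (66.9%). Crest mesenchyme had 2 of 11 higher (2.43%) and 3 lower (11.1%), and smooth muscle 0 of 10 (5.54%) and 1 (3.91%). Of 12 other partners of the RXRs 6 reached 10 CPM and 4 were called somewhere, and Fabp5, an alternative carrier of retinoic acid, was called higher in no class, although it reached 1229 CPM in cushion mesenchyme, and lower in 3 (cardiomyocytes, smooth muscle and myeloid cells).

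Genes whose level followed a member most closely over the 16 classes were read by Pearson's r of log2(CPM + 1) among 11831 genes. All points come from the same 6 libraries, and erythroid and myeloid cells are low for most of these genes, so the coefficients are descriptions only. For Rara the closest were Rc3h1 (0.965), Zfp160 (0.962) and Dip2c (0.960), and for Rarb Adamts12 (0.883), Chpt1 (0.883) and Zfp523 (0.879). Rarg went with Mtbp (0.861), Serpinf1 (0.860) and Spsb1 (0.855). Rxra went with Dnajc30 (0.941), Lrrc40 (0.939) and Zfp36l1 (0.938), and Rxrb with Tob2 (0.975), Tbc1d31 (0.971) and Riok2 (0.958). Rxrg, the narrowest member, was closest to Ano5 (0.925), Barhl2 (0.907) and Cdh12 (0.897), all highest in branchiomeric muscle. Crabp1 was closest to Ikzf5 (0.931), Syt7 (0.909) and the neurotrophin receptor Ngfr (0.898), all highest in migratory crest and glia, and Crabp2 to Wasf3 (0.986), Elovl2 (0.954) and Cecr2 (0.949). Among the members themselves the highest coefficient was that of Crabp1 with Crabp2 (0.867) and the lowest that of Rarg with Rxrg (-0.0244).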

How the data were processed

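Single-cell 3′ libraries were made with the 10x Genomics version 3 kit, per the labels' protocols. The authors deposited 1 matrix of raw UMI counts for all 6 libraries. Per the file headers, these deposited counts come from Cell Ranger 5.0.0. The submitters' processing notes name mm10, CASAVA 1.8 and Seurat 4; the counting strand is not given in the sources used here. The 8 genes and all lists were chosen with earlier results of these data known, and the scoring of the gates was set after marker values were seen.

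Filters took out 17029 barcodes for few genes and 371 for mitochondrial UMIs, leaving 67.4%. Doublets were not called; cells passing several gates (3064) were set aside, and 11616 passed none. Counts were summed per class (CPM), with exact Poisson, Clopper-Pearson and, for ratios, binomial 95% intervals. Values by library needed 20 cells. Other pathway genes are named at 10 CPM in some class and, in a comparison, at 2-fold; likeness names the 3 closest genes. No test was run: the libraries could not be assigned to samples or groups and were not treated as replicates, so edgeR was planned and not used. In counts simulated for crest mesenchyme, 100% of 67 genes raised 3-fold and 0% of 66 raised 1.5-fold were called. These counts held counting error only, without spread between libraries or errors of the gates. They check the calculation and not whether a call is right. Alternatives were 15 planned settings and some added after seeing the data. Coordinates are GRCm38 (GENCODE M21, 32158 of 32285 gene IDs matched). Python 3.11.15, numpy 2.4.6, scipy 1.17.1, pandas 2.3.3 and leidenalg 0.10.2 were used. Some pathway genes are not reported by name here.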

Additional observations from a re-analysis of the deposited data

How the results depend on the processing

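No paired analysis of streptozotocin and vehicle samples was possible. No file used here ties a library to a sample, so the replicate numbers of these samples could not be matched. Classes were set side by side within each library as directions, without a test. The comparison of streptozotocin with vehicle, with edgeR or DESeq2, was not run. The count of members called higher by class, 12, stayed between 10 (cells thinned to 5000 UMIs) and 13 (without library 5). The count between Hox3 and Hox-negative crest, 1, was 2 with the Hox code read from thinned cells. The count between atrial and ventricular cells, 1, was 2 with a minimum of 5 CPM and 4 with no minimum. The count for crest mesenchyme by library was 1 in each setting run. Of 895 recomputations of 64 called ratios, 872 stayed called and 23 did not, 1 of which reversed: Rxrg between Hox3 and Hox-negative anterior heart field mesoderm, from 0.340 to 3.62 with classes from 37 clusters; the cause was not tested. Leaving out the 283 cells with a shared barcode changed none of the 4 counts. Gates left 11616 retained cells without a class, which carry 26.6% to 33.7% of the UMIs of each member, so class levels describe the cells that were gated. Rxra was below the minimum of 10 CPM for a call in each class, and depth limits the levels of Rxrg where few UMIs were counted, as in myeloid cells.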

Other observations

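Cells that passed no gate had levels of the 8 genes near or above those of all gated cells together: Rarb was at 71.6 CPM against 43.1 CPM, Crabp1 at 428 against 310 CPM and Crabp2 at 249 against 174 CPM. Their median was 25338 UMIs per cell, against 36422 in gated cells. Cells that passed several gates had 38.8 CPM of Rarb, 179 CPM of Crabp1 and 106 CPM of Crabp2, with a median of 47466 UMIs.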
